A study of Mus musculus with 6 samples.

Results

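The ribosome biogenesis factors described here are the genes whose pathway annotation in the deposited table holds the KEGG term for ribosome biogenesis in eukaryotes, with genes named Rpl or Rps left out. This gave 74 of the 19353 genes of the table, and no Rpl or Rps gene had carried the term. The selection rule reads the annotation and no measured value. They were sorted by known role into the small subunit processome (27 genes), late maturation of the 40S subunit (3), the proteins of small nucleolar ribonucleoproteins (snoRNPs; 8), RNase MRP and RNase P (9), ribonucleases of pre-rRNA (6), maturation of the 60S subunit (11), nuclear export (8) and 2 further entries.

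The cells were mesenchymal stem cells purified from the bone marrow of wild-type mice and held in osteogenic medium, which in both groups contained 100 nM dexamethasone, 10 mM β-glycerophosphate and 50 µM ascorbic acid. For 3 libraries (MCH) it was supplemented with 0.5 µM melanin-concentrating hormone, a hypothalamic neuropeptide, and 3 libraries (Control) had none. Titles give day 9 of induction and the design text gives day 8. The deposited columns of the Control libraries are told apart by having no MCH in their names, and every direction rests on those names. Polyadenylated RNA was sequenced. No label names the animals or says that replicates came from separate cultures, so a p-value measures only how these samples spread, which may be technical variation.

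Ribosomes are built in the nucleolus from a long pre-rRNA transcribed by RNA polymerase I. The small subunit processome assembles on the 5′ end of that RNA around the U3 snoRNA, while other snoRNPs guide methylation and pseudouridylation, nucleases cut the spacers away, and each precursor subunit is matured and then exported through nuclear pores. In growing cells the pathway is among the largest consumers of RNA polymerase activity, and many of its genes are known targets of MYC.

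With MCH, 12 of the 70 factors that could be tested rose and none fell. The 12 were Wdr43, Wdr36, Utp6, Emg1 and Mphosph10 of the processome, Nop56, Nop58, Snu13 and Dkc1 of the snoRNPs, Pop5 of RNase MRP, and Ran and Nxt1 of export. The rises were small, from 1.19-fold to 1.48-fold. The 12 were 17.1% of the members tested, and 3.64% of all 13662 genes tested rose (edgeR quasi-likelihood fit, p under 0.05 after Benjamini-Hochberg adjustment). For falls the share was 5.4% over all genes and 0 of 70 among the members, and by adjusted p 0 fell with DESeq2 or limma-voom. At an unadjusted p under 0.05, 1 member was lower with edgeR, 1 with limma-voom and 0 with DESeq2. Counts at an unadjusted p under 0.05, here and below, are given without the share over all genes. They are therefore not read as a result about the members. The median log2 fold change of the 70 was 0.16 (1.12-fold), the median over all genes was 0.00, and 58 of the 70 estimates were above 0, or 82.9% beside 50.3% of all genes. No test of the list as a whole was made. The count of 12 rested on all 6 libraries: it became 17 without MCH replicate 1, 0 without MCH replicate 3, 2 without MCH replicate 2, 5 without Control replicate 1 and 1 without Control replicate 2 or Control replicate 3.

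**Figure D1:**
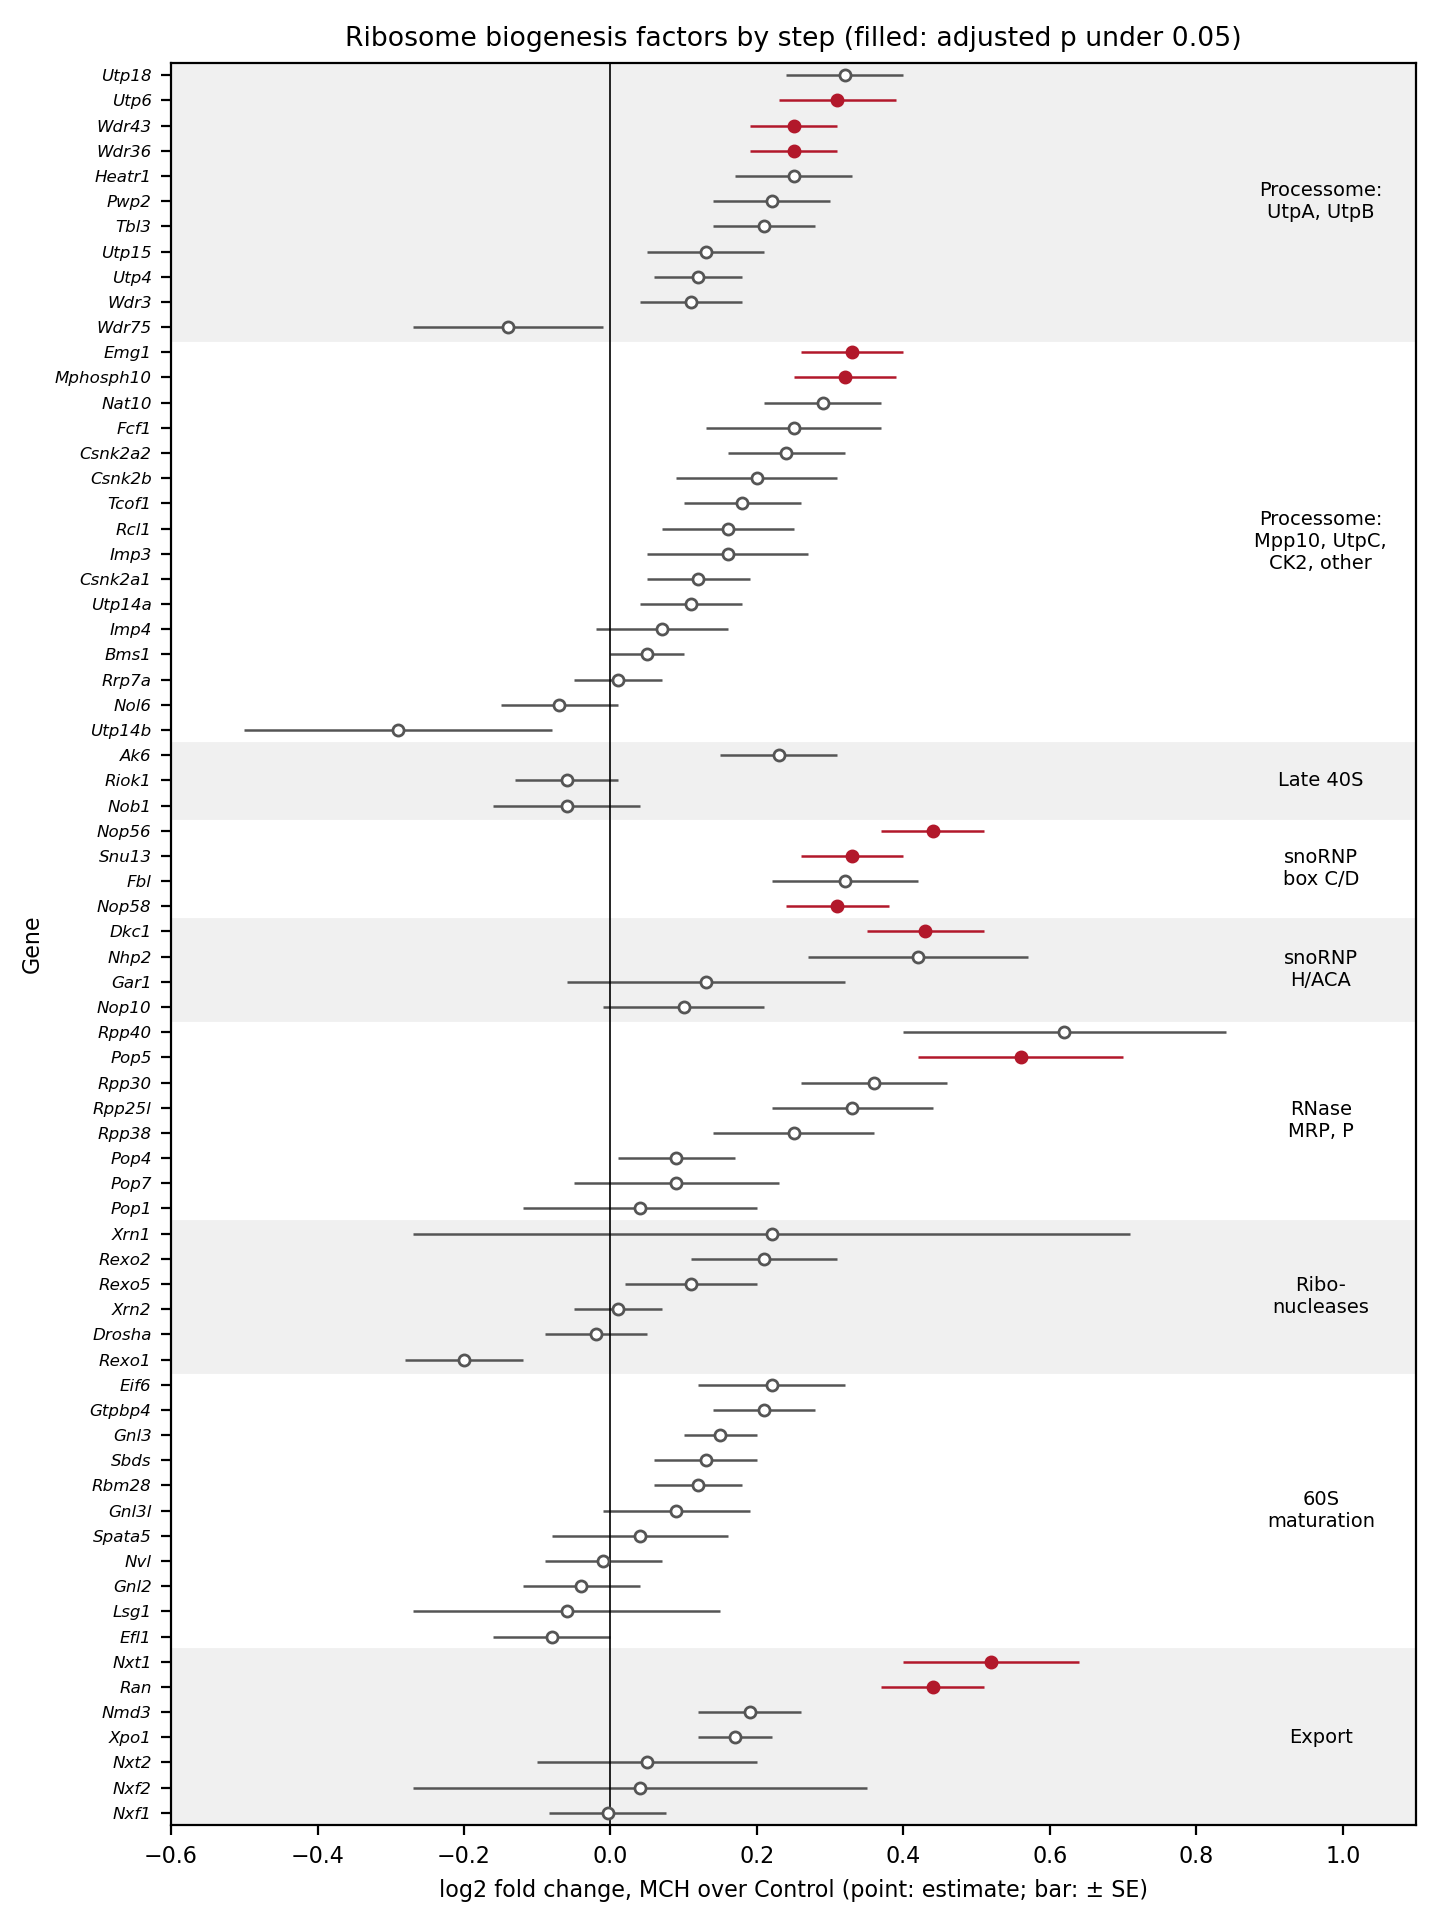
Log2 fold change, MCH over Control, of the 70 tested ribosome biogenesis factors, grouped by step and sorted within each. Points are edgeR estimates from 3 libraries a group and bars are ± SE; filled points are the 12 genes with an adjusted p under 0.05, none of which lies in the 60S maturation group.

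Levels are given as CPM, read counts relative to the library total, scaled between libraries with TMM factors, and fold changes as log2 of MCH over Control with the SE of the fit. In 35 of the 70 members every MCH library lay above every Control library (50.0%, beside 16.1% of all genes), and in 1, Rexo1, every MCH library lay below (16.6% of all genes). The shift was narrow. A log2 fold change above 0.20 was estimated for 42.9% of the members and 22.3% of all genes, while above 0.50 the shares were 4.29% and 4.16%.

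**Figure D2:**
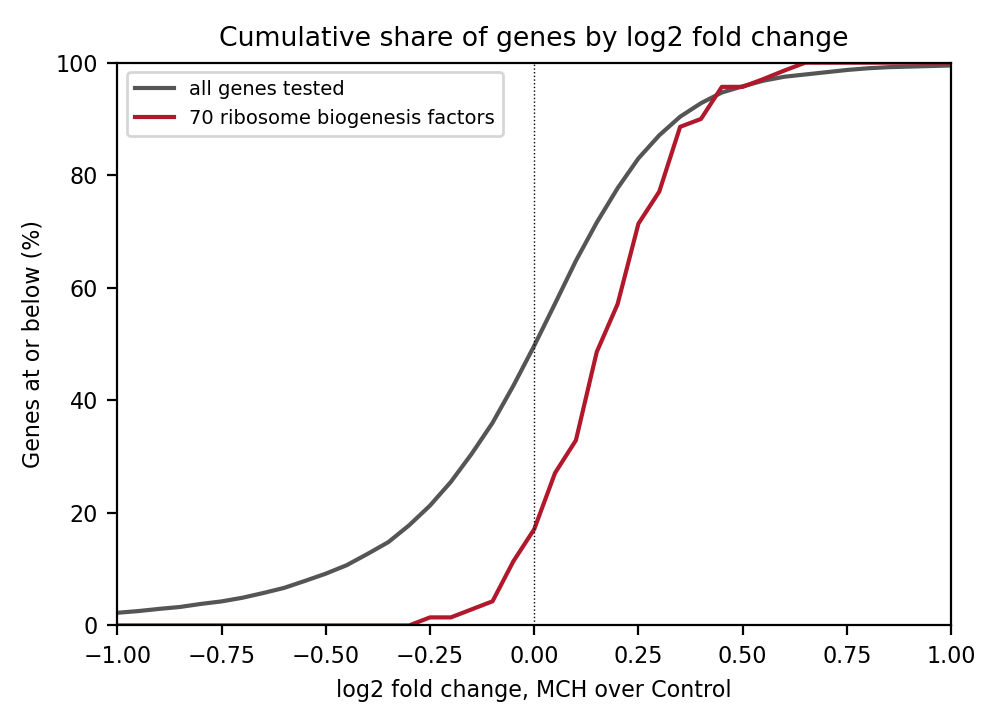
Cumulative share of genes (%, y axis) at or below a log2 fold change (x axis) for the 70 factors and for all 13662 genes tested. At a log2 fold change of 0.00 the curve of the factors stands at 17.1% and that of all genes at 49.7%, and above 0.45 the curves lie together.

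In the box C/D snoRNP core 3 of 4 proteins rose, where 3.64% of all genes rose. This was the largest part of any step, but the group is small and no test compared the steps. With every MCH library higher in 16.1% of all genes, the groups did not overlap for any of these 4 proteins. These proteins bind snoRNAs, many of which are cut from introns, and in the mouse genes Nop56, Nop58 and Wdr43 such snoRNAs lie inside the genes of the machinery itself. Sequences of 4 of them, all in introns of members that rose, are shown with the box C core (TGATG) and box D (CTGA) in capitals, because these boxes are what the box C/D proteins assemble on. They are GENCODE M21 transcripts on GRCm38: Snord110 in Nop56 (chr2:130275506-130275573, plus strand), Snord70 (chr1:59691934-59692020, plus) and Snord11 (chr1:59704790-59704873, plus) in Nop58, and Snord92 in Wdr43 (chr17:71631281-71631365, plus).
Snord110: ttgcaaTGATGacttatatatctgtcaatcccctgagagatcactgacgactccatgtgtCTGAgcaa
Snord70: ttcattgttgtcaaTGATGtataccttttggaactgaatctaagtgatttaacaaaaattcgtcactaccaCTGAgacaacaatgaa
Snord11: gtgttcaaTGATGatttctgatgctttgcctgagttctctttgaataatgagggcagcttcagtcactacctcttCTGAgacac
Snord92: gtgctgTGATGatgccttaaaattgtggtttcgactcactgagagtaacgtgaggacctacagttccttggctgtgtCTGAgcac

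Nop56, which bridges the snoRNP core, stood at 156, 169 and 158 CPM in MCH replicates 1, 2 and 3 and at 120.4, 109 and 126 CPM in Control replicates 1, 2 and 3. All MCH libraries lay above all Control libraries. The log2 fold change was 0.44 ± 0.07 (adjusted p = 0.0118), the smallest p of the pathway. Its partner and paralog Nop58 stood at 112, 121 and 123 CPM with MCH and 96.7, 99 and 90.5 CPM in Control, again without overlap (0.31 ± 0.07, adjusted p = 0.0297). Snu13, the protein that first recognises the folded box C/D motif, and which the table lists under its older name Nhp2l1, stood at 161, 180.4 and 173 CPM against 147, 127 and 134 CPM. Its groups also stood apart (0.33 ± 0.07, adjusted p = 0.0348). Fbl, fibrillarin, the methyltransferase of the complex, did not pass the test. It stood at 151, 190.0 and 165 CPM with MCH and 148, 129.9 and 128 CPM in Control, with MCH replicate 1 barely above Control replicate 1 (0.32 ± 0.10, adjusted p = 0.0842).

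Of the 4 H/ACA proteins, which form the pseudouridine synthase particles, only Dkc1 rose, where 3.64% of all genes rose. Dkc1, dyskerin, the catalytic subunit and also a part of telomerase, stood at 54.3, 48.5 and 50.1 CPM with MCH and at 37.6, 39.1 and 36.8 CPM in Control. The gap between the groups was wider than the spread in either (0.43 ± 0.08, adjusted p = 0.0165). Nhp2 had an estimate of the same size but spread MCH libraries: 119, 173 and 156 CPM against 125, 101 and 107 CPM. MCH replicate 1 lay within the Control range and the edgeR test was not passed (0.42 ± 0.15, adjusted p = 0.136). DESeq2 called Nhp2 higher, as it did Utp18 and Nat10 of the processome, which also missed the threshold with edgeR. Gar1 (0.13 ± 0.19) and Nop10 (0.10 ± 0.11) also overlapped between groups, with Gar1 at 50.9, 77.6 and 61.2 CPM against 65.6, 60.4 and 47 CPM. Nhp2 and Snu13 are related L7Ae-type proteins of the 2 snoRNP classes. Per kilobase of merged exon Nhp2 stood at 114 CPM and Snu13 at 52.6, while Nop56 stood at 34.1 and Nop58 at 9.95. The merged exons were 4.1 kb for Nop56 and 10.8 kb for Nop58, so the gap between these 2 depends much on the annotated length.

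The UtpA and UtpB subcomplexes, which bind the 5′ end of the pre-rRNA first, gave 10 of 11 estimates above 0 and a median of 0.22. In 9 of the 11 genes every MCH library lay above every Control library, beside 16.1% of all genes. Only 3 passed the test, where 3.64% of all genes rose. Wdr43, a UtpA protein, stood at 163, 174 and 176 CPM with MCH and 143, 148 and 140.1 CPM in Control (0.25 ± 0.06, adjusted p = 0.0389). Wdr36, a UtpB protein, stood at 85.4, 87.8 and 91.8 CPM against 74, 76.1 and 72.7 CPM (0.25 ± 0.06, adjusted p = 0.0455). Utp6, also of UtpB, stood at 78.5, 83.5 and 91.2 CPM against 71.4, 67.2 and 66.3 CPM (0.31 ± 0.08, adjusted p = 0.0482). For all 3 the lowest MCH library was MCH replicate 1, and it still exceeded the highest Control library. Utp18 had the highest estimate of the group without passing (0.32 ± 0.08, adjusted p = 0.0562): 40.2, 40.8 and 42 CPM against 33.9, 34.9 and 29.8 CPM. Heatr1, the large UtpA scaffold, stood at 0.25 ± 0.08 (adjusted p = 0.0892) and Tbl3 of UtpB at 0.21 ± 0.07 (adjusted p = 0.11). Pwp2, Utp15, Utp4 and Wdr3 ranged from 0.11 to 0.22. Utp4, listed under its older name Cirh1a, was the most abundant of the 11 per kilobase of exon at 36.7 CPM. Wdr75 of UtpA was the exception, at 60.1, 49.3 and 50.0 CPM against 48.2, 65 and 62.8 CPM (-0.14 ± 0.13), with overlap in both directions.

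Of the 16 further processome factors 2 rose, beside 3.64% of all genes. Emg1, which methylates a pseudouridine of 18S rRNA, stood at 129, 139 and 133 CPM with MCH and at 111, 99.1 and 108 CPM in Control (0.33 ± 0.07, adjusted p = 0.0246). Mphosph10, the scaffold of the complex that helps U3 pair with the pre-rRNA, stood at 49.2, 49.7 and 48.4 CPM against 36.8, 39.5 and 41.5 CPM (0.32 ± 0.07, adjusted p = 0.0385). Its MCH libraries were nearly equal, and with exon length and GC trends removed the estimate was 0.20 (adjusted p = 0.146). Its direct partners did not pass: Imp3 had an estimate of 0.16 ± 0.11 and Imp4 of 0.07 ± 0.09. Nat10, which acetylates cytidines of 18S rRNA, was close to the threshold, at 49.6, 50.4 and 50.5 CPM against 38.7, 40.4 and 44.2 CPM (0.29 ± 0.08, adjusted p = 0.0573). Tcof1, treacle, which links the processome to RNA polymerase I, stood at 0.18 ± 0.08 (adjusted p = 0.199), and Fcf1, a nuclease that cuts the pre-rRNA, at 0.25 ± 0.12 (adjusted p = 0.223).

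The casein kinase 2 subunits, which work in many pathways, did not pass. Csnk2a2 stood at 0.24 ± 0.08 (adjusted p = 0.106), its paralog Csnk2a1 at 0.12 ± 0.07 and the regulatory subunit Csnk2b, the most abundant of the 16 per kilobase at 97 CPM, at 0.20 ± 0.11. The GTPase Bms1 and its partner Rcl1 stood at 0.05 ± 0.05 and 0.16 ± 0.09. Nol6 (-0.07 ± 0.08) and Rrp7a (0.01 ± 0.06) of the UtpC subcomplex stood near 0. Utp14a, the cofactor of a processome helicase, stood at 83.4 ± 5.71 CPM with MCH against 77.1 ± 2.39 CPM in Control (SD, n = 3). Its retrogene paralog Utp14b, best known from the male germ line, was at 34 to 54 counts in every library and had the lowest estimate of all members (-0.29 ± 0.21, adjusted p = 0.431).

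In late 40S maturation none of 3 genes passed with edgeR, 1 was higher at an unadjusted p under 0.05, and none passed with DESeq2 or limma-voom. That gene, Ak6, an ATPase of the last steps, stood at 84.7, 95.2 and 99.3 CPM against 80.6, 81.8 and 76.2 CPM (0.23 ± 0.08, adjusted p = 0.108). Nob1, the nuclease that makes the 3′ end of 18S rRNA, stood at 100.2 ± 7.25 CPM with MCH against 104 ± 11.7 CPM in Control. The kinase Riok1 stood at 44.1 ± 0.721 and 46 ± 2.09 CPM.

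RNase MRP, which cuts the first internal spacer, shares most of its proteins with RNase P, which processes tRNA. All 8 tested subunits had estimates above 0, with a median of 0.29. In 5 the groups did not overlap, with MCH higher, beside 16.1% of all genes. Of the 8 subunits 1 passed the test, where 3.64% of all genes rose. Pop5 stood at 13.8, 18.1 and 16.6 CPM with MCH and at 10.8, 9.78 and 12.2 CPM in Control (0.56 ± 0.14, adjusted p = 0.0488). It had the largest fold change of the 12 that rose and the adjusted p nearest to the threshold. Rpp40 had the largest estimate of any member, 0.62 ± 0.22, with a wide spread and no pass (adjusted p = 0.129): 10.7, 8.97 and 14.6 CPM against 5.65, 8.63 and 8.01 CPM. Rpp30 was at 26.7, 30.5 and 34.3 CPM against 23.8, 23.7 and 23.8 CPM (0.36 ± 0.10, adjusted p = 0.0723). Its Control libraries were nearly equal and its MCH libraries spread upward. Rpp25l stood at 0.33 ± 0.11 (adjusted p = 0.101), and it was the most abundant subunit per kilobase of exon at 36 CPM. Rpp38 stood at 0.25 ± 0.11, Pop4 at 0.09 ± 0.08, Pop7 at 0.09 ± 0.14 and the large subunit Pop1 at 0.04 ± 0.16. Rpp25, the paralog of Rpp25l, had 0 to 3 counts a library and was not tested.

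None of the 6 ribonucleases of pre-rRNA passed with edgeR, DESeq2 or limma-voom, 0 were higher and 1 lower at an unadjusted p under 0.05. That 1 was Rexo1, at 33.3 ± 0.922 CPM with MCH against 38.2 ± 2.42 CPM in Control (SD, n = 3), with no overlap (-0.20 ± 0.08, adjusted p = 0.155). Rexo5, listed as 2610020H08Rik, stood apart in the other direction, at 16.3, 15.5 and 15.3 CPM with MCH against 14.4, 14.5 and 14.9 CPM in Control (0.11 ± 0.09, adjusted p = 0.502). Over all genes the groups stood apart with MCH higher in 16.1% and lower in 16.6%. Xrn2, the nuclear exonuclease that trims 5′ ends of rRNA, stood at 138 ± 7.31 and 137 ± 4.73 CPM. Its cytoplasmic relative Xrn1 was uneven: Control replicate 2 stood at 10.2 CPM and the other 5 libraries at 21.8 to 33.4 CPM. Without Control replicate 2 its estimate moved from 0.22 to -0.15. Per kilobase of exon Xrn2 stood at 34.5 CPM and Rexo2 at 33.2. Rexo2 was at 121 ± 16.4 and 104 ± 5.15 CPM, and Drosha stood at 109 ± 5.38 and 111 ± 4.99 CPM.

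In 60S maturation 0 of 11 genes passed with edgeR, 2 were higher at an unadjusted p under 0.05 and none passed with DESeq2 or limma-voom. The median estimate was 0.09. Gtpbp4, a GTPase of early 60S particles, stood at 59, 53.9 and 52.7 CPM against 46.9, 47.9 and 48 CPM (0.21 ± 0.07, adjusted p = 0.11). Gnl3, nucleostemin, a GTPase abundant in stem cells, stood at 159, 156 and 164 CPM against 147, 145 and 140.2 CPM. For both, the groups did not overlap, and for Gnl3 the fold change was 0.15 ± 0.05 (adjusted p = 0.123). Eif6, which keeps the new 60S subunit from joining the 40S too early, was the most abundant of the 11 per kilobase of exon at 79.2 CPM, with 231 ± 21.3 CPM with MCH against 197 ± 23.8 CPM in Control (0.22 ± 0.10, adjusted p = 0.214). The factors that remove it, Sbds (0.13 ± 0.07) and Efl1 (-0.08 ± 0.08, listed as Eftud1), overlapped between groups. Rbm28 stood at 0.12 ± 0.06, and Gnl3l, Spata5, Nvl, Gnl2 and Lsg1 ranged from -0.06 to 0.09. Lsg1, the GTPase that recycles the export adaptor Nmd3, was the most spread, from 35.7 to 58.6 CPM within the MCH group alone. The share that passed in this step and in the others was not compared by a test.

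Of 7 tested export genes 2 rose, beside 3.64% of all genes. Ran, the GTPase that gives nuclear transport its direction, was the most abundant member per kilobase of exon at 158 CPM. It stood at 448, 509 and 488 CPM with MCH and at 382, 342 and 345 CPM in Control, well apart (0.44 ± 0.07, adjusted p = 0.015). Nxt1, which pairs with Nxf1 in RNA export, stood at 39.1, 47.4 and 45.1 CPM against 33.5, 25.6 and 32.5 CPM (0.52 ± 0.12, adjusted p = 0.0412). Its partner Nxf1 overlapped between groups, at 184, 195 and 208 CPM against 180.1, 201 and 207 CPM (-0.004 ± 0.08, adjusted p = 0.979). Its paralog Nxt2 was lower in level (3.48 against 33.3 CPM per kilobase) and stood at 0.05 ± 0.15. Xpo1, the exportin of both subunits, was at 151, 150.0 and 148 CPM against 133, 136 and 129.9 CPM (0.17 ± 0.05, adjusted p = 0.0806). Nmd3, the adaptor between Xpo1 and the 60S subunit, was at 66.5, 69.6 and 76.1 CPM against 62.9, 62.7 and 61 CPM (0.19 ± 0.07, adjusted p = 0.152). Both stood apart without passing. Nxf2 had 23 to 45 counts a library and overlapped. Nxf3 (0 to 6 counts) and the Ran-like entries Rasl2-9 (0 to 2) and 1700009N14Rik (0 to 6) were not tested. Counting is not described in the sources used here, so how reads were divided between Ran and such near-identical copies is uncertain.

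**Figure D3:**
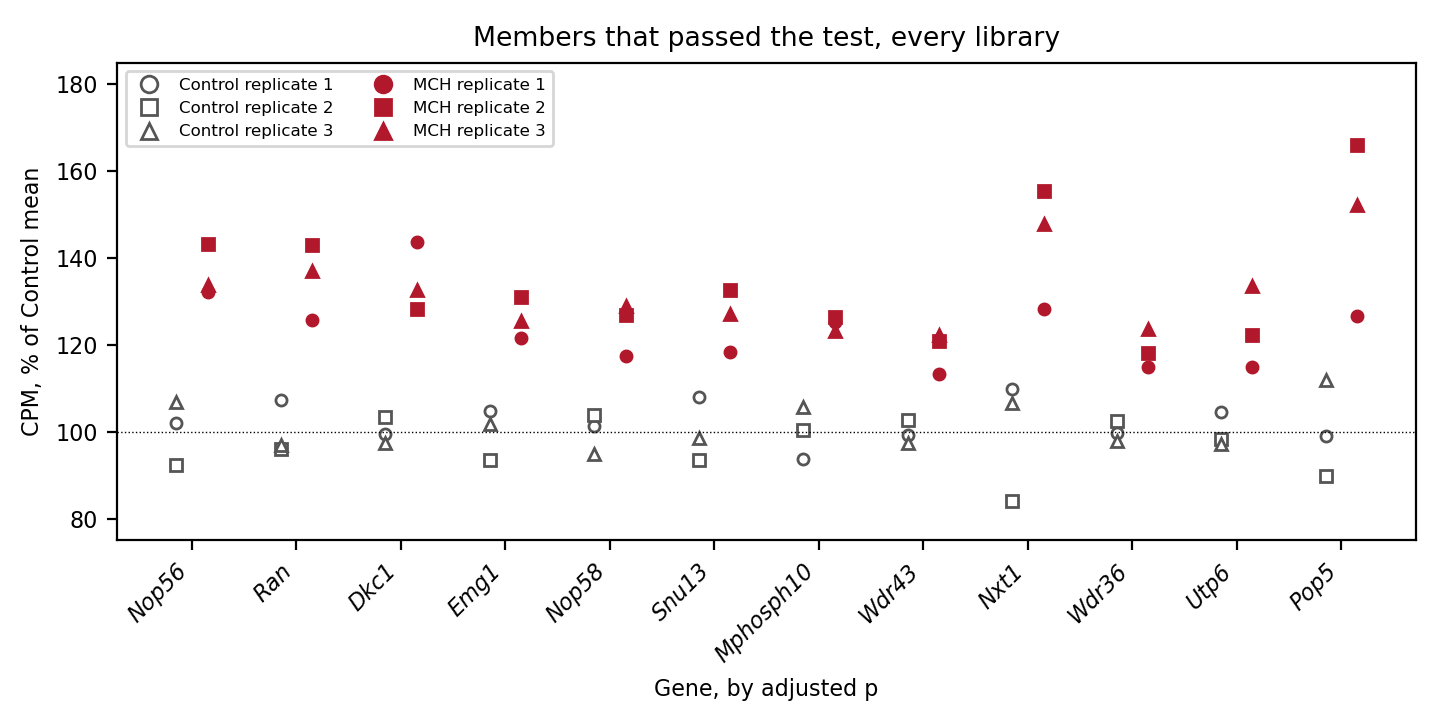
Levels of the 12 factors that rose, each library as a percentage of the gene's Control mean in CPM (y axis, which starts at 75), with genes ordered by adjusted p. Open symbols are Control and filled symbols MCH, 1 symbol shape for each replicate number, and MCH replicate 1 (filled circles) is the lowest MCH library for 10 of the 12 genes.

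The 3 MCH libraries did not stand equally far from Control. Over the 70 members, the mean difference in log2 CPM from each gene's own mean was 0.03, 0.13 and 0.09 in MCH replicates 1, 2 and 3 and -0.06, -0.10 and -0.09 in Control replicates 1, 2 and 3. MCH replicate 1 was the lowest MCH library for 43 of 70 members (61.4%) and for 38.6% of all genes. The sizes of the steps differed by library as well: MCH replicate 2 stood highest for box C/D (0.27) and H/ACA proteins (0.29), and MCH replicate 3 for RNase MRP (0.23). Without MCH replicate 1, 17 members rose, 11 of them among the 12. The 6 added were Nhp2, Fbl, Rpp30, Fcf1, Ak6 and Rexo2.

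Each other library that was left out lowered the count. Nop56 and Dkc1 passed without MCH replicate 2, and Nop56 alone without Control replicate 2 or Control replicate 3. Without MCH replicate 3 none passed, with 20 members higher at an unadjusted p under 0.05. The share of all genes that rose went the same way, from 0.468% without MCH replicate 3 to 5.19% without MCH replicate 1. Nop56 passed in 5 of these 6 fits, Dkc1 in 3, Ran, Emg1 and Snu13 in 2 each, Nop58, Wdr43, Nxt1, Wdr36, Utp6 and Pop5 in 1 each, that without MCH replicate 1, and Mphosph10 in none. The estimates moved little: the median of the members stayed between 0.14 and 0.19, and that of Nop56 between 0.39 and 0.49.

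**Figure D4:**
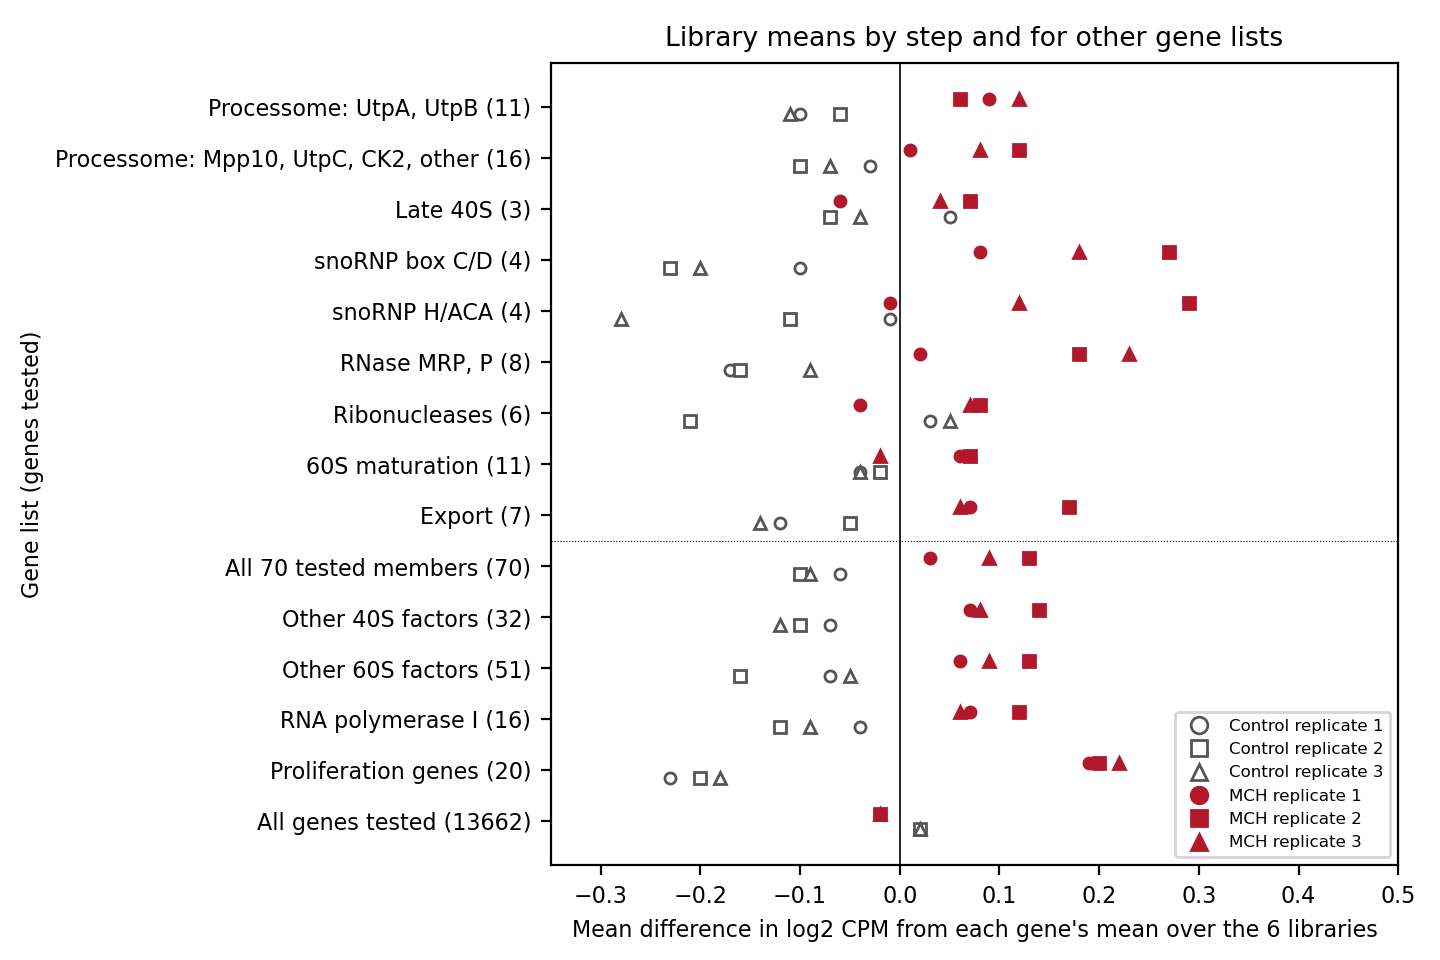
Mean difference in log2 CPM of each library from the gene's mean over the 6 libraries (x axis), for each step, all 70 tested members and other gene lists (y axis, genes tested in parentheses). Open symbols are Control and filled symbols MCH; the box C/D proteins span from -0.23 to 0.27, the 60S maturation factors from -0.04 to 0.07, and the proliferation genes stand apart in every library.

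Factors of ribosome assembly outside the KEGG term were counted in the same fit, in which 3.64% of all genes rose, and no test compared the lists. Of 51 other 60S assembly factors 10 rose (19.6%) and none fell, with 43 estimates above 0, 8 below and a median of 0.19. The 3 with the smallest p were Rpf2, Rsl1d1 and Ebna1bp2. Rpf2, which brings the 5S particle into the 60S precursor, stood at 41.6 CPM with MCH against 23.1 CPM in Control (0.85 ± 0.14, adjusted p = 0.0122). The log2 fold change was 0.31 ± 0.06 (adjusted p = 0.0241) for Rsl1d1 and 0.44 ± 0.09 (adjusted p = 0.0284) for Ebna1bp2. The abundant nucleolar proteins Ncl (nucleolin) and Npm1 (nucleophosmin) and the helicase Ddx21 were also among the 10. These are not specific to 60S assembly, so the list is broader than its name. The list of other 40S factors also holds a few genes better known for the 60S subunit. Of its 32 genes 3 rose (9.38%) and none fell, with 30 estimates above 0, 2 below and a median of 0.20. These were Aatf (0.49 ± 0.06, adjusted p = 0.00435), the rRNA dimethylase Dimt1 (0.58 ± 0.12, adjusted p = 0.0275) and Tsr2 (0.36 ± 0.08, adjusted p = 0.0291).

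Of 16 genes for RNA polymerase I and its factors 2 rose, Nolc1 (0.38 ± 0.08, adjusted p = 0.0284) and Cd3eap (0.47 ± 0.11, adjusted p = 0.0434). The largest subunits did not, with Polr1a at 143 CPM with MCH against 141 CPM in Control and Polr1b at 28.8 and 29.1 CPM. Of 15 genes for the RNA exosome, which trims pre-rRNA from its 3′ end, 3 rose, Exosc9 (0.42 ± 0.08), Exosc1 (0.55 ± 0.11) and Exosc7 (0.31 ± 0.08). Of 9 genes for the assembly of box C/D or H/ACA snoRNPs 1 rose, Znhit3 (0.44 ± 0.11, adjusted p = 0.045). None of the genes on these 3 lists fell.

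Myc itself stood at 126 CPM in both groups (0.01 ± 0.06, adjusted p = 0.954). Of 10 tested genes of the MYC network Mxd1 rose (0.41 ± 0.07, adjusted p = 0.0159) and Mnt fell (-0.36 ± 0.09, adjusted p = 0.049); both encode repressors that compete for the same partner, Max. The protein p53 is stabilised when ribosome assembly fails. Among 13 genes, which are its own gene Trp53 and targets of p53, none rose and Trp53inp1 fell (-0.49 ± 0.11, adjusted p = 0.0348). Cdkn1a stood at 263 and 251 CPM. Of 20 proliferation genes 13 rose and none fell, where 3.64% of all genes rose and 5.4% fell. They were led by Mcm6 (0.63 ± 0.06, adjusted p = 0.00103), Rrm2 (0.60 ± 0.06, adjusted p = 0.002) and Top2a (0.45 ± 0.06, adjusted p = 0.00428). Mki67 did not pass (0.08 ± 0.07, adjusted p = 0.503), nor did Aurka, Aurkb, Bub1, Cenpf, Mcm4 and Plk1. The library means of the 20 genes ran from 0.19 to 0.22 with MCH and from -0.23 to -0.18 in Control. In bulk RNA a change in the share of dividing cells and a change in RNA per cell cannot be told apart, and the part of the proliferation genes in the rises of the ribosome biogenesis factors was not tested.

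Of the 70 tested members, 5 have a snoRNA gene annotated inside them: Nop56 with 5, Nop58 with 4, Wdr43 and Gnl3 with 3 each, and Dkc1 with 1. Of these 4 rose, Gnl3 being the exception, beside 3.64% of all genes. In all 5 every MCH library lay above every Control library, beside 16.1% of all genes. Among 236 other tested genes with a snoRNA gene inside, 10 rose (4.24%) and 8 fell, with a median of 0.08. Of 14 tested snoRNA host genes without a major protein product 1 rose, Snhg6 (0.46 ± 0.09, adjusted p = 0.0274), and none fell. The snoRNAs themselves, such as Snord110, were not measured, since the libraries hold polyadenylated RNA.

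Promoter windows from 250 bases before to 50 bases after the start, 300 bases in all, were available in the RefSeq table (GRCm38.p6) for 61 of the 74 members. Tbl3, Utp6, Wdr36, Nol6, Tcof1, Fcf1, Fbl, Pop1, Gnl2, Gnl3l, Eif6, Sbds and Nxf3 had no entry. Motifs were searched on both strands. The E-box CACGTG, the core bound by MYC with MAX, was in 18.8% of the 69 member windows, 9.77% of windows of tested genes and 7.15% of all windows. The ETS-family motif CCGGAAGT was in 23.2%, 7.87% and 3.89%. NRF1's core GCGCATGC was in 4.35%, 5.05% and 2.71%, and the palindrome CTCGCGAG in 2.9%, 1.82% and 0.919%. Among members that rose, windows with an E-box were those of Ran and Wdr43, a window with the ETS motif was that of Emg1, and the window of Ran also held the NRF1 core, further upstream than the stretch printed. Stretches upstream of 3 genes that rose are printed to show both cases: Ran with an E-box in capitals (chr5:129020006-129020068, plus strand), Emg1 with 2 ETS motifs in capitals (chr6:124712179-124712328, minus strand), and Nop56, which has none of the 4 motifs (chr2:130274262-130274411, plus strand). A match is a description of the letters and not a bound site.
Ran promoter: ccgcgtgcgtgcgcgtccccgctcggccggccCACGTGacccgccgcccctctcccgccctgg
Emg1 promoter: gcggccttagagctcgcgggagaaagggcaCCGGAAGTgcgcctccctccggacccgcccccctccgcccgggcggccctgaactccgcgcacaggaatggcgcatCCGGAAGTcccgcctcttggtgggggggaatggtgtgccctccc
Nop56 promoter: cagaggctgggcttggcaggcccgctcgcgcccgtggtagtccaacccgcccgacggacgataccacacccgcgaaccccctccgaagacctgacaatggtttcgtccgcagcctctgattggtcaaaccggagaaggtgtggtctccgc

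The 6 libraries held 16521980 to 18803949 counts, and every tested member but Utp14b and Nxf2 had at least 92 counts in each. Ptprc, the pan-leukocyte marker, had 0 to 2 counts a library. The 10 mesenchymal markers summed to 1842 to 1926 CPM with MCH and to 2426 to 2514 CPM in Control, and Ly6a, Pdgfra, Pdgfrb and Nt5e fell. The 7 markers of the osteoblast lineage summed to 8099 to 8945 CPM with MCH and to 11868 to 12835 CPM in Control. Of these Spp1, Alpl, Col1a1 and Col1a2 fell, Runx2 had 783 to 1111 counts a library and did not pass the test, and Sp7 (3 to 4 counts) and Bglap (0 to 3) were near 0. The groups did not overlap in either sum. The summed level of 8 macrophage genes was 47.5 to 80.5 CPM with MCH and 38 to 45.1 CPM in Control. It was highest in MCH replicate 3, which had 50 counts of Adgre1 where the other libraries had 0 to 11. Of 4 leukocyte genes only Cd3e passed 4 counts, at 125 to 153 counts with MCH against 39 to 61. The part of these marker differences in the results was not tested. Over the 70 members the log2 fold change correlated weakly with merged exon length (Spearman's rho -0.22 across genes, which share libraries, and -0.20 over 13614 genes). By the authors' deposited q-values, 0 of the 74 members and 522 of all 19353 genes were under 0.05, and no test compared these shares. The smallest q-value among the members was that of Ran, 0.0505.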

How the data were processed

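Polyadenylated RNA of 3 MCH and 3 Control libraries was analysed by the authors with the GRCm38 (mm10) build, as the submitters' processing notes give it. The deposited table holds read counts and FPKM per gene, with the authors' p-values and q-values, per the file headers. With aligner, counter and strand setting not given in the sources used here, reads shared by near-identical, overlapping or antisense genes are uncertain. All 212 genes that the authors marked UP have the higher mean FPKM in the columns taken as Control, and all 31 marked DOWN in those of MCH.

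Counts were tested with edgeR 4.0.16 (R 4.3.3): TMM, filterByExpr (minimum count 10, minimum total 15), a robust quasi-likelihood fit on group, two-sided, Benjamini-Hochberg over 13662 genes at 0.05. SEs are the unshrunken coefficient divided by the root of F. The steps were tested on simulated counts with less spread than these data and with larger fold changes than those of the members that rose. That test gives no rate of missed or false calls for rises of this size. DESeq2 1.42.0 and limma 3.58.1 were alternatives. The deposited FPKM imply 1 length per gene, longer than the gene's own span for 1152 genes, so levels between genes use CPM per kilobase of merged GENCODE M21 exons, where all 74 members were found by gene ID. Merged exons cover every annotated transcript, so ranks of abundance depend on the length used. By mean deposited FPKM Gnl3 (80.7) stood above Eif6 (52.4), and Imp3 (60.5) above Csnk2b (51.5). Within groups, any pair of libraries varied beyond counting error (14.9 to 25.3 chi-square per degree of freedom).

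Members, steps and lists were chosen with earlier results of these data known. By rule, the text names members past the threshold, per step up to 3 more with the smallest p and the most abundant, untested members, paralog pairs, and per related list up to 3 genes with the smallest p. Ncl, Npm1, Ddx21, Myc, Trp53, Cdkn1a, Polr1a and Polr1b, the proliferation genes that did not pass, and the remaining members, were named after their values were seen.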

Additional observations from a re-analysis of the deposited data

How the results depend on the processing

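The count of 12 members that rose was 9 to 15 under other scaling, filters and tests, and no member fell under any of them. Over 12 alternatives other than leaving out a library, Nop56, Ran, Dkc1, Emg1 and Nop58 kept their call in 11, Snu13, Wdr43 and Nxt1 in 10, Mphosph10 in 9, Utp6 in 8, and Wdr36 and Pop5 in 7. Mphosph10 moved to 0.20 (adjusted p = 0.146) with exon length and GC trends removed. DESeq2 added Nhp2, Utp18 and Nat10. The log2 fold changes of the 12 kept their sign in every alternative, and the cause of lost calls was not tested. With the replicate number as a replicate block, 0 members rose (17 at an unadjusted p under 0.05), and 28 genes rose and 151 fell of all tested. Same-numbered libraries did not deviate together (correlations -0.161, -0.039 and -0.014). With 3 libraries a group such correlations cannot tell whether the numbers are a pairing. The members' median was 0.12 with the gene length trend removed and 0.11 with exon length and GC trends removed, an alternative added after the data were seen, in which 14 members rose. With 1 library left out, 0 to 17 members rose, and over all genes 65 to 722 rose and 256 to 867 fell. Depth was even, and 3 libraries a group limit what could be called.

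Of 70 members 18 changed sign somewhere, none of them past the threshold in either fit. With the gene length trend removed the log2 fold change was 0.0009 for Drosha, -0.01 for Imp3, -0.06 for Nop10, 0.08 for Nvl, 0.04 for Nxf1, -0.02 for Nxf2, -0.004 for Nxt2, -0.01 for Pop7 and -0.01 for Xrn2. With exon length and GC trends removed it was 0.03 for Drosha, 0.02 for Nol6, -0.09 for Nop10, 0.05 for Nvl, 0.003 for Nxf1, -0.10 for Nxf2, -0.14 for Nxt2, -0.001 for Pop7, -0.02 for Spata5 and -0.07 for Xrn2. That of Rrp7a was -0.003 with the stricter filter, -0.004 without scaling, -0.004 on FPKM and -0.002 with upper-quartile scaling, and that of Xrn2 -0.0006 on FPKM. With 1 library left out the values ran from -0.06 to 0.01 for Drosha, -0.04 to 0.27 for Gar1, -0.10 to 0.01 for Gnl2, -0.31 to 0.08 for Lsg1, -0.15 to 0.01 for Nob1, -0.0008 to 0.16 for Nop10, -0.06 to 0.04 for Nvl, -0.06 to 0.04 for Nxf1, -0.18 to 0.33 for Nxf2, -0.10 to 0.15 for Nxt2, -0.09 to 0.13 for Pop1, -0.02 to 0.16 for Pop7, -0.02 to 0.04 for Rrp7a, -0.07 to 0.12 for Spata5, -0.15 to 0.49 for Xrn1 and -0.03 to 0.04 for Xrn2.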
